A study of Mus musculus with 8 samples.

Results

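The genes described here are the cytosolic ribosomal protein genes and their paralogues in the mouse testis at postnatal day 12 (P12). They were chosen by symbol alone: Rpl, Rps or Rplp followed by a number, with at most 2 of the letters a, x and l and a last digit allowed. That rule found 86 of the 40840 genes in the count tables: 43 genes of the large subunit, 3 of the P stalk, 30 of the small subunit and 10 paralogues, which are the symbols with an l after the number. The study asked what the poison exon of Tra2b does in male germ cells. A poison exon carries a stop codon, so that transcripts that include it are degraded, and Tra2β, a splicing activator, promotes inclusion of the one in its own gene. RNA from whole testes, a mixture of germ cells and somatic cells, was sequenced from 4 wild type and 4 Tra2b-cPEko mice, all on a C57BL/6J background and lettered A to D within a genotype. Per the study's text, wild type mice carried 1 floxed and 1 normal Tra2b allele (Tra2bPE fl/+) and no Cre, and Tra2b-cPEko mice carried a floxed and a deleted allele with Vasa-Cre (Tra2b fl/-;Vasa-Cre). Vasa-Cre is active in germ cells from before birth, so somatic cells of the Tra2b-cPEko testis kept the exon of the floxed allele. The methods describe the mice as biologically independent and say that the cell types of a P12 testis could vary slightly with its exact age.

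Each ribosome has a small subunit, which reads the mRNA, and a large subunit, which joins amino acids, and most of their proteins come from single genes whose mRNAs are among the most abundant in any cell. Many of these mRNAs start with a C and a run of pyrimidines, the terminal oligopyrimidine (TOP) motif, through which mTOR and LARP1 control their translation and stability. In the male germ line the X chromosome is silenced at meiosis, and autosomal copies such as Rpl10l and Rpl39l are expressed in spermatocytes, where their X-linked parent genes Rpl10 and Rpl39 are shut off.

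Rpl39 and Rpl39l show how close such a pair is. Their coding sequences, without the stop codon, are each 153 bases long and differ at 23 bases (85.0% identity), given here in capitals from GRCm39 with the GENCODE vM39 models. Rpl39 is at chrX:36345092-36349130 on the minus strand and Rpl39l at chr16:9949671-9992780 on the plus strand.
Rpl39: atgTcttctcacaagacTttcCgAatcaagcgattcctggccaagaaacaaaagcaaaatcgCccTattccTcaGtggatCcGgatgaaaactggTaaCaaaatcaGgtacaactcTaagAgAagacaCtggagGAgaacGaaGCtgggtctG
Rpl39l: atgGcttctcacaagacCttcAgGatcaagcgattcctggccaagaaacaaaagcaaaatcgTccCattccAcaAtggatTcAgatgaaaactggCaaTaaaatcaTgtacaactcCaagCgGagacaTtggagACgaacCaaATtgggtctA
Identity over the aligned coding bases was 84.7% for Rpl10 and Rpl10l, 87.7% for Rpl36a and Rpl36al, and 80.0% for Rps4x and Rps4l, and it was lowest for Rpl7 and Rpl7l1 at 61.8%.

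Copies elsewhere in the genome bear on how well these genes can be counted, because the tables leave out reads that align to more than 1 place. Of all 100-base windows of each coding sequence with up to 50 bases either side, the share found again elsewhere in GRCm39 was 0% for Rpl10l, Rpl39l, Rpl22, Rpl3l, Rps27l and Rps3. It was 98.9% for Rpl10, 94.0% for Rpl36a, 43.5% for Rpl39 and 42.9% for Rps4x. In all, 15 members had under 10% of windows with a copy and 20 had 90% or more. Levels set side by side between members, including a paralogue and its parent, therefore understate genes with many copies by an amount that the tables do not give. In the annotation 33 members share exon bases with another gene on the same strand and 49 on the other strand, and whether the counting used strand is not given in the sources used here.

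Gene reads per mouse were 44059049, 41998195, 47827152 and 59101569 in wild type A to D and 49992767, 36817161, 46855820 and 36757386 in Tra2b-cPEko A to D. Members took 1324800 reads on average in wild type and 1096113 in Tra2b-cPEko mice, so all but the rarest were counted deeply. Tra2b itself was at 158, 166, 156 and 176 CPM (counts per 1000000 gene reads after TMM scaling) in wild type A to D and at 199.9, 190.3, 192 and 209 CPM in Tra2b-cPEko A to D. Every Tra2b-cPEko mouse was above every wild type mouse, with a log2 fold change (Tra2b-cPEko minus wild type throughout) of 0.27 (SE 0.05), an edgeR quasi-likelihood adjusted p of 0.0552 and a DESeq2 adjusted p of 0.000195. Gene counts do not show which exons a Tra2b transcript holds.

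Markers of the testis were present in every library. Sertoli cell genes summed to 7885 to 8367 CPM in wild type and 7779 to 8623 CPM in Tra2b-cPEko mice, with Clu the most abundant at 3720 CPM. Genes of leptotene and zygotene spermatocytes, with Tex15 the most abundant at 626 CPM, summed to 3255 to 4220 CPM and 3305 to 3452 CPM. Pachytene genes, with Hspa2 the most abundant at 125 CPM, set wild type A and B apart: their sums were 409 and 424 CPM, against 217 and 250 CPM in wild type C and D and 242 to 307 CPM in Tra2b-cPEko mice. Red blood cell genes, with Hbb-bs the most abundant at 31.7 CPM, were also highest in wild type A and B, with sums of 98.1 and 138 CPM against 25.3 to 83.5 CPM in the 6 other mice. Piwil1, which encodes a meiotic PIWI protein, was at 43.6 and 46.8 CPM in wild type A and B and at 9.04 to 14.4 CPM in the 6 other mice. Crisp1, a gene of the epididymis that was at 0 in all wild type libraries, was at 107 CPM in Tra2b-cPEko C, where 7 epididymal markers other than Cst12 summed to 135 CPM against 3.19 to 6.2 CPM elsewhere. The fit without wild type A and B was added after these values were seen, and main results are given also from it below.

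Members took 2.77, 2.94, 2.64 and 2.68% of gene reads in wild type A to D and 2.56, 2.60, 2.50 and 2.66% in Tra2b-cPEko A to D. Wild type B was the highest mouse and Tra2b-cPEko C the lowest, and the groups overlapped between wild type C and Tra2b-cPEko D. The mean share was 2.76% ± 0.131 (SD, n = 4) in wild type and 2.58% ± 0.0681 (SD, n = 4) in Tra2b-cPEko mice, which was lower by 6.42% of the wild type value. Against wild type C and D alone, with a mean of 2.66%, the share was lower by 3.07%. Reads on genes were 67.6 to 69.0% of all table reads in wild type and 66.4 to 67.3% in Tra2b-cPEko mice, without overlap, and the part of this in the members' share was not tested. In whole testis, fewer cells of a type and less RNA per cell cannot be told apart.

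**Figure D1:**
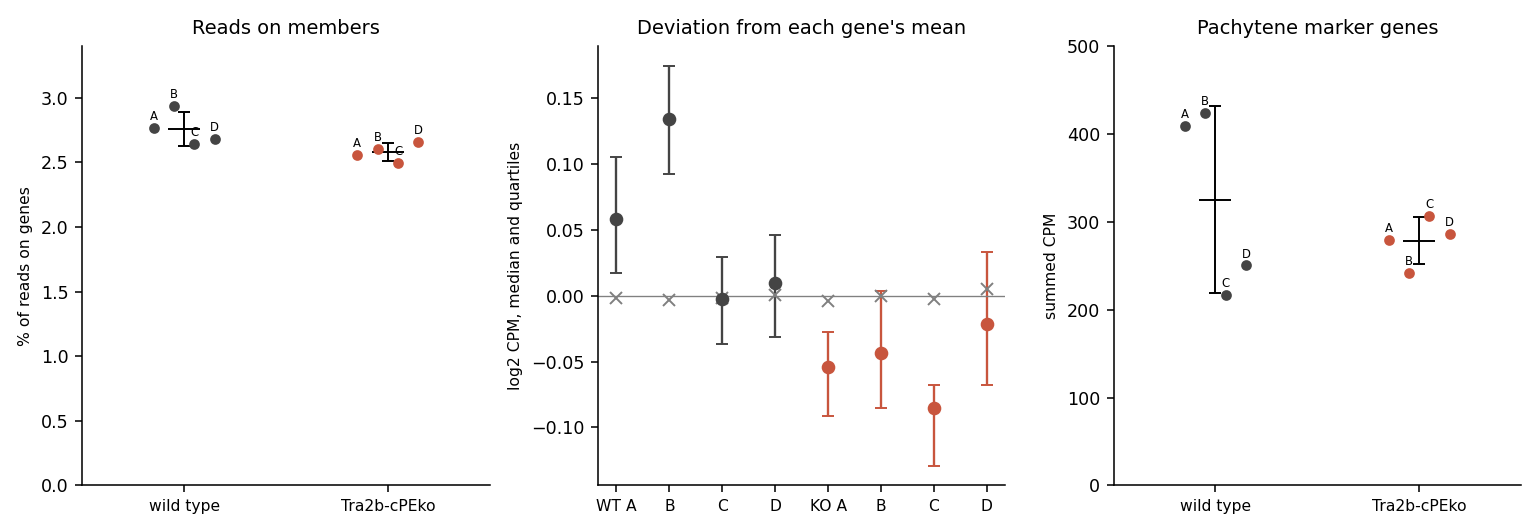
Left, percent of gene reads that fell on the 86 members in each mouse (points with replicate letters; bar and whiskers, mean ± SD of 4 mice). Middle, deviation of log2 CPM from each gene's own mean over the 8 mice, as the median over 85 members (points) with quartiles (whiskers) and the median over all genes tested (crosses); right, summed CPM of 19 pachytene marker genes. Wild type B stands highest at a median of 0.13, and wild type A and B stand apart at 409 and 424 CPM of pachytene markers.

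Across members the difference was small and ran one way. Of the 85 members that passed the filter on low counts (Rpl32l, with as little as 1 read in a library, did not), 82 had a lower estimate in Tra2b-cPEko mice and 3 a higher one, Rpl6l, Rps2 and Rpl13. Their median log2 fold change was -0.10, against 0.00 over all 19104 genes tested, of which 50.3% had a lower estimate. The median was -0.10 over the 43 large-subunit genes, -0.11 over the 30 small-subunit genes, -0.07 over the 3 stalk genes and -0.19 over the 9 paralogues tested. Each mouse's median deviation over the members was 0.06, 0.13, 0.00 and 0.01 in wild type A to D, and -0.05, -0.04, -0.09 and -0.02 in Tra2b-cPEko A to D, on the log2 scale. All Tra2b-cPEko mice were below all wild type mice in this measure, and wild type C and D were close to 0.

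No member was called by edgeR's quasi-likelihood test at a Benjamini-Hochberg adjusted p under 0.05, where 0.157% of all genes tested were called. At an unadjusted edgeR p under 0.05, 31 members were lower and 0 higher, against 7.07% of all genes tested that were lower and 8.22% that were higher. DESeq2 called 10 members, all lower, against 1.14% of the genes it tested that were called lower and 1.66% that were called higher. In 15 members, 17.6% of those tested, every Tra2b-cPEko mouse was below every wild type mouse, and 4.18% of all genes tested showed this.

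These counts changed with the mice in the fit, for all genes as well as for the members. DESeq2 called 2 members lower without wild type A, 2 without wild type B and 2 without Tra2b-cPEko A, where 0.292, 0.379 and 0.359% of all genes it tested were called lower. It called 0 without Tra2b-cPEko C (0.153% of all genes), 6 without Tra2b-cPEko B (1.11%), 5 without Tra2b-cPEko D (0.416%), 18 without wild type C (2.88%) and 13 without wild type D (1.05%). At an unadjusted edgeR p under 0.05 the lower members numbered 19 to 42 over the same 8 fits, lowest without wild type B and without Tra2b-cPEko C, where 5.38 and 4.74% of all genes were lower, and highest without wild type C, with 9.84%. Members whose groups did not overlap, a looser condition with fewer mice, numbered 15 without wild type A, without wild type B or without Tra2b-cPEko C, and 21 to 31 without each of the others, against 5.12 to 8.36% of all genes.

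Without both wild type A and B, the libraries with the most pachytene and red blood cell marker RNA, the median log2 fold change over the members was -0.05 and 13 members had a higher estimate. In that fit 9 members were lower at an unadjusted edgeR p under 0.05 against 4.24% of all genes, DESeq2 called 0 members against 0.234% of all genes, and 15 members did not overlap against 10.3% of all genes. The medians were -0.05 for the large subunit, -0.05 for the small subunit, 0.01 for the P stalk and -0.07 for the paralogues. The 10 members called by DESeq2 with all mice kept lower estimates, between -0.18 and -0.10. No other pair of mice was left out, and whether the stage of the germ cells or blood had a part in the difference was not tested.

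**Figure D2:**
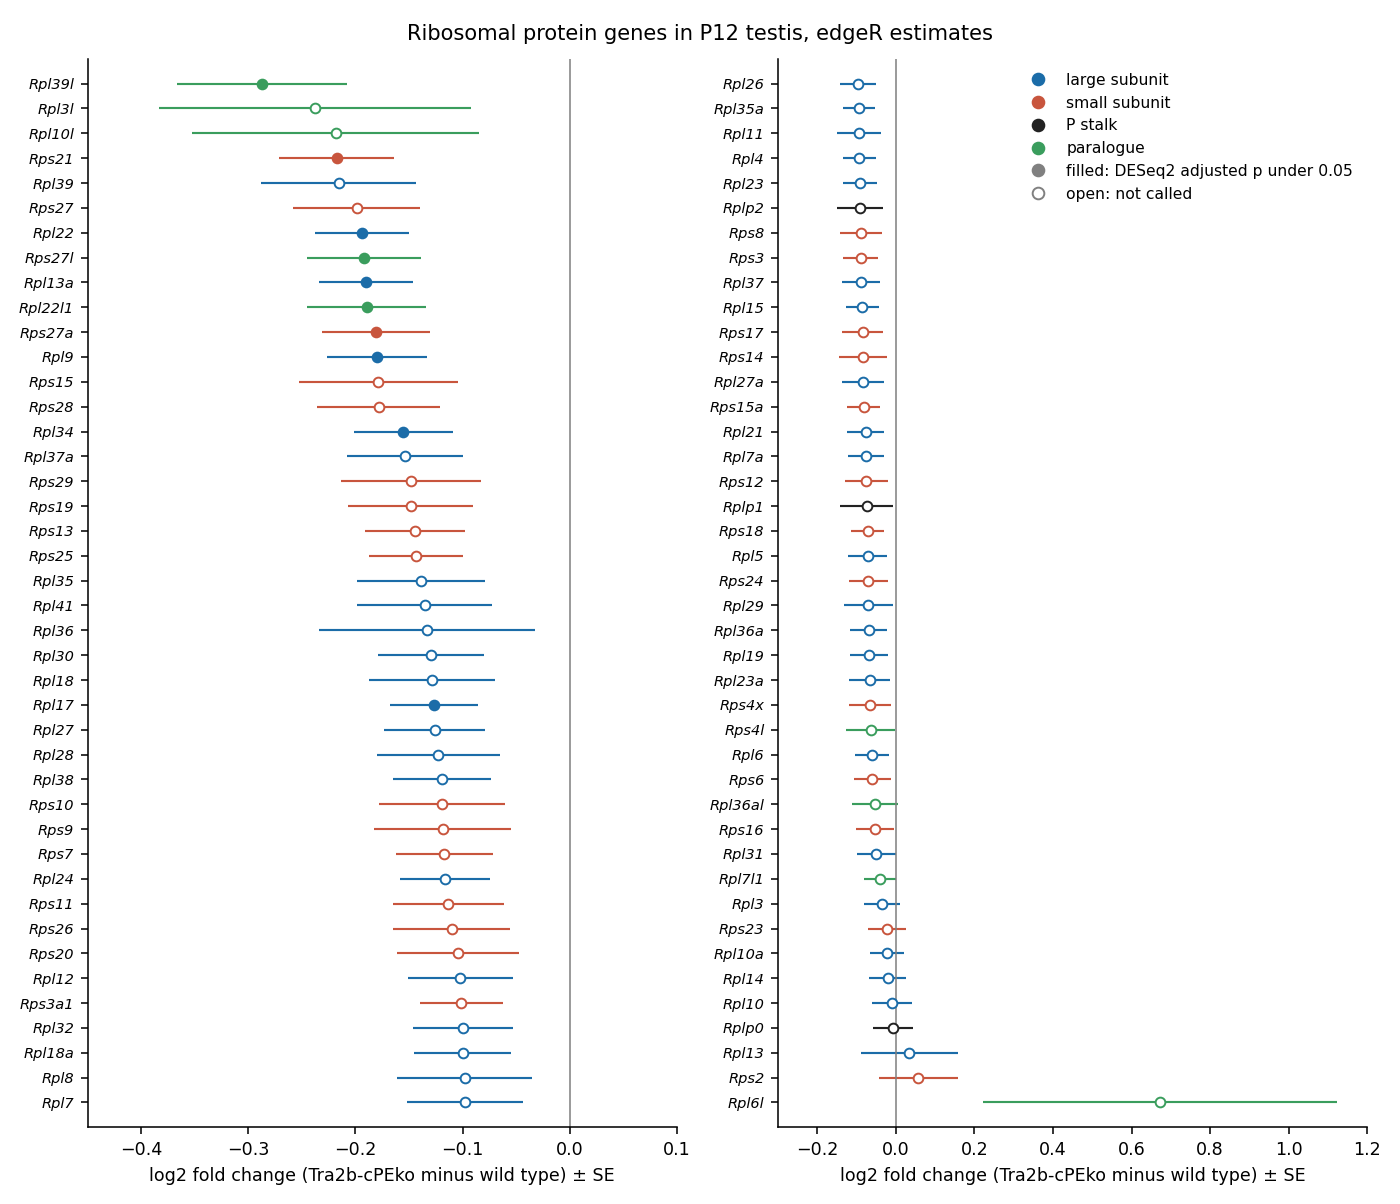
Log2 fold change (Tra2b-cPEko minus wild type) with its standard error for 84 of the 85 members tested by edgeR, ordered by size in 2 columns whose axes differ in range, with colours for subunit, P stalk and paralogue. Filled points are the 10 members that DESeq2 called, none was called by edgeR, and 81 of the 84 points lie below 0.

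Among large-subunit genes, Rpl22 and Rpl13a had the smallest p. Rpl22, whose protein also binds RNAs outside the ribosome, was at 227, 228, 213 and 214 CPM in wild type A to D and at 184, 198, 189.9 and 199.8 CPM in Tra2b-cPEko A to D. No Tra2b-cPEko mouse reached a wild type mouse, and the mean was 12.6% lower (log2 fold change -0.19, SE 0.04, edgeR adjusted p = 0.0971, DESeq2 adjusted p = 0.00267, exact permutation p = 0.0286). That exact p, two-sided, is the smallest that 4 against 4 mice can give. Rpl13a, which has a second role in blocking translation of inflammatory mRNAs, was at 509, 506, 465 and 492 CPM in wild type and at 437, 444, 415 and 433 CPM in Tra2b-cPEko mice. Its groups did not overlap either, and its log2 fold change was -0.19 (SE 0.04, edgeR adjusted p = 0.099, DESeq2 adjusted p = 0.00204). Rpl22 and Rpl13a had copies for 0% and 2.31% of their windows, which covered only the coding sequence and short flanks. Their other exon bases were not searched, and how many of their reads were left out as not unique was not tested.

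Rpl9, Rpl34 and Rpl17 were the other large-subunit genes that DESeq2 called. Rpl9 was at 251 to 283 CPM in wild type and at 230.1 to 238 CPM in Tra2b-cPEko mice (log2 fold change -0.18, edgeR adjusted p = 0.125). Rpl34 was at 202 to 218 CPM and at 177 to 201 CPM (-0.16, edgeR adjusted p = 0.165), and Rpl17, whose protein lies by the exit tunnel for the new chain, at 369 to 385 CPM and at 336 to 363 CPM (-0.13, edgeR adjusted p = 0.192). In all 3 the highest Tra2b-cPEko mouse was below the lowest wild type mouse, by the most in Rpl9. The estimates of Rpl9, Rpl34 and Rpl17 were -0.10, -0.12 and -0.10 without wild type A and B. Their windows had copies elsewhere for 83.0, 38.1 and 91.5%.

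Among small-subunit genes, Rps21 and Rps27a were called by DESeq2. Rps21 was at 158, 163, 146 and 149 CPM in wild type A to D and at 131, 125, 129 and 145 CPM in Tra2b-cPEko A to D, with Tra2b-cPEko D just under the lowest wild type mouse. Its log2 fold change was -0.22 (SE 0.05, edgeR adjusted p = 0.112, DESeq2 adjusted p = 0.0154). Rps27a, which encodes ubiquitin fused to a small-subunit protein, was at 305 to 360.3 CPM in wild type and at 288 to 302 CPM in Tra2b-cPEko mice, without overlap (-0.18, edgeR adjusted p = 0.142, DESeq2 adjusted p = 0.0372; -0.11 without wild type A and B). Rps25, which some viral RNAs need to start translation, also did not overlap between groups, with a log2 fold change of -0.14 and an edgeR adjusted p of 0.174, and an estimate of -0.09 without wild type A and B. Rps28 and Rps13 had estimates of -0.18 and -0.14, both with an edgeR adjusted p of 0.192, and overlapped. They were -0.08 and -0.11 without wild type A and B.

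The P stalk, which recruits elongation factors to the large subunit, did not show a difference beyond its spread. Rplp0, the base of the stalk and the member with the highest CPM, was at 993, 1092, 1002 and 1034 CPM in wild type A to D and at 1041, 966, 998 and 1096 CPM in Tra2b-cPEko A to D. The groups overlapped throughout, with a log2 fold change of -0.01 (SE 0.05, edgeR adjusted p = 0.963). The sign of this estimate turned with upper-quartile scaling (0.01), without wild type B (0.02) and without Tra2b-cPEko B (0.02). It also turned without Tra2b-cPEko C (0.00) and without wild type A and B (0.01). Rplp1 and Rplp2, the acidic proteins of the stalk, had log2 fold changes of -0.07 and -0.09 with standard errors of 0.07 and 0.06, and edgeR adjusted p of 0.63 and 0.482, and were 0.03 and -0.07 without wild type A and B and -0.05 and -0.06 without Tra2b-cPEko C.

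Levels between members were compared per kilobase of exon, with gene lengths defined in 2 ways. On the union of all annotated exons, mean levels over the 8 mice were highest for Rplp1 (999 CPM per kb), Rps29 (458) and Rps3a1 (412), with a median member at 106. They were lowest among members tested for Rpl6l (0.473), Rpl3l (1.18) and Rpl22l1 (15.5). On coding length alone, which was chosen after seeing that many union lengths were several times the coding length, Rpl41 was highest at 6426 CPM per kb of coding sequence and Rpl3l was lowest at 2.77 among members with a coding length, which Rpl6l does not have. The counts are of whole genes, so reads outside the coding sequence are in these values and raise those of short coding sequences. That of Rpl41 is only 75 bases long, and on the union of exons Rpl41 was at 345, below Rplp1. Rps3a1, whose wild type mice (473 to 503 CPM) all lay above the Tra2b-cPEko mice (452 to 466 CPM), had a log2 fold change of -0.10 (SE 0.04, edgeR adjusted p = 0.254), and Rps29 one of -0.15 (SE 0.07, edgeR adjusted p = 0.308) with overlap, which was -0.02 without wild type A and B.

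The testis paralogues Rpl10l and Rpl39l both had lower means in Tra2b-cPEko mice, and the groups overlapped for Rpl10l. Rpl39l was at 37.5, 34.3, 29.5 and 30.4 CPM in wild type A to D and at 26.7, 24.6, 28.5 and 28.0 CPM in Tra2b-cPEko A to D. The groups did not overlap, wild type A and B were highest, and the log2 fold change of -0.29 (SE 0.08) was the lowest of all members tested (edgeR adjusted p = 0.141, DESeq2 adjusted p = 0.0388). Without wild type A and B it was -0.15 with an edgeR adjusted p of 0.486. Rpl10l was at 37.4, 43.0, 28.1 and 31.8 CPM in wild type and at 32.5, 25.1, 30.4 and 32.4 CPM in Tra2b-cPEko mice. Wild type A and B were again highest, the other 6 mice were mixed, and the log2 fold change was -0.22 (SE 0.13, edgeR adjusted p = 0.474). It was 0.01 without wild type A and B, the libraries with the highest pachytene sums, and the part of germ cell stage in these values was not tested.

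Their X-linked parents lay at higher CPM, which is not scaled by gene length. Rpl39, a small protein of the exit tunnel, was at 127, 115, 106 and 101 CPM in wild type A to D and at 99.0, 101, 99.1 and 86.9 CPM in Tra2b-cPEko A to D. Its groups overlapped only between wild type D and Tra2b-cPEko B (log2 fold change -0.22, SE 0.07, edgeR adjusted p = 0.208), and the estimate was -0.10 without wild type A and B. Rpl10, which is needed to complete the large subunit, was at 264 to 301 CPM in wild type and at 269.7 to 296 CPM in Tra2b-cPEko mice. Its log2 fold change was -0.01 (SE 0.05, edgeR adjusted p = 0.945), and -0.03 without Tra2b-cPEko C. The estimate turned to 0.01 with upper-quartile scaling and without wild type A and B. It was also 0.01 without wild type B, without wild type C and without Tra2b-cPEko D. Rps4x and Rpl36a, the other members on the X chromosome, had log2 fold changes of -0.07 each with edgeR adjusted p of 0.584 and 0.502, and -0.04 each without wild type A and B.

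**Figure D3:**
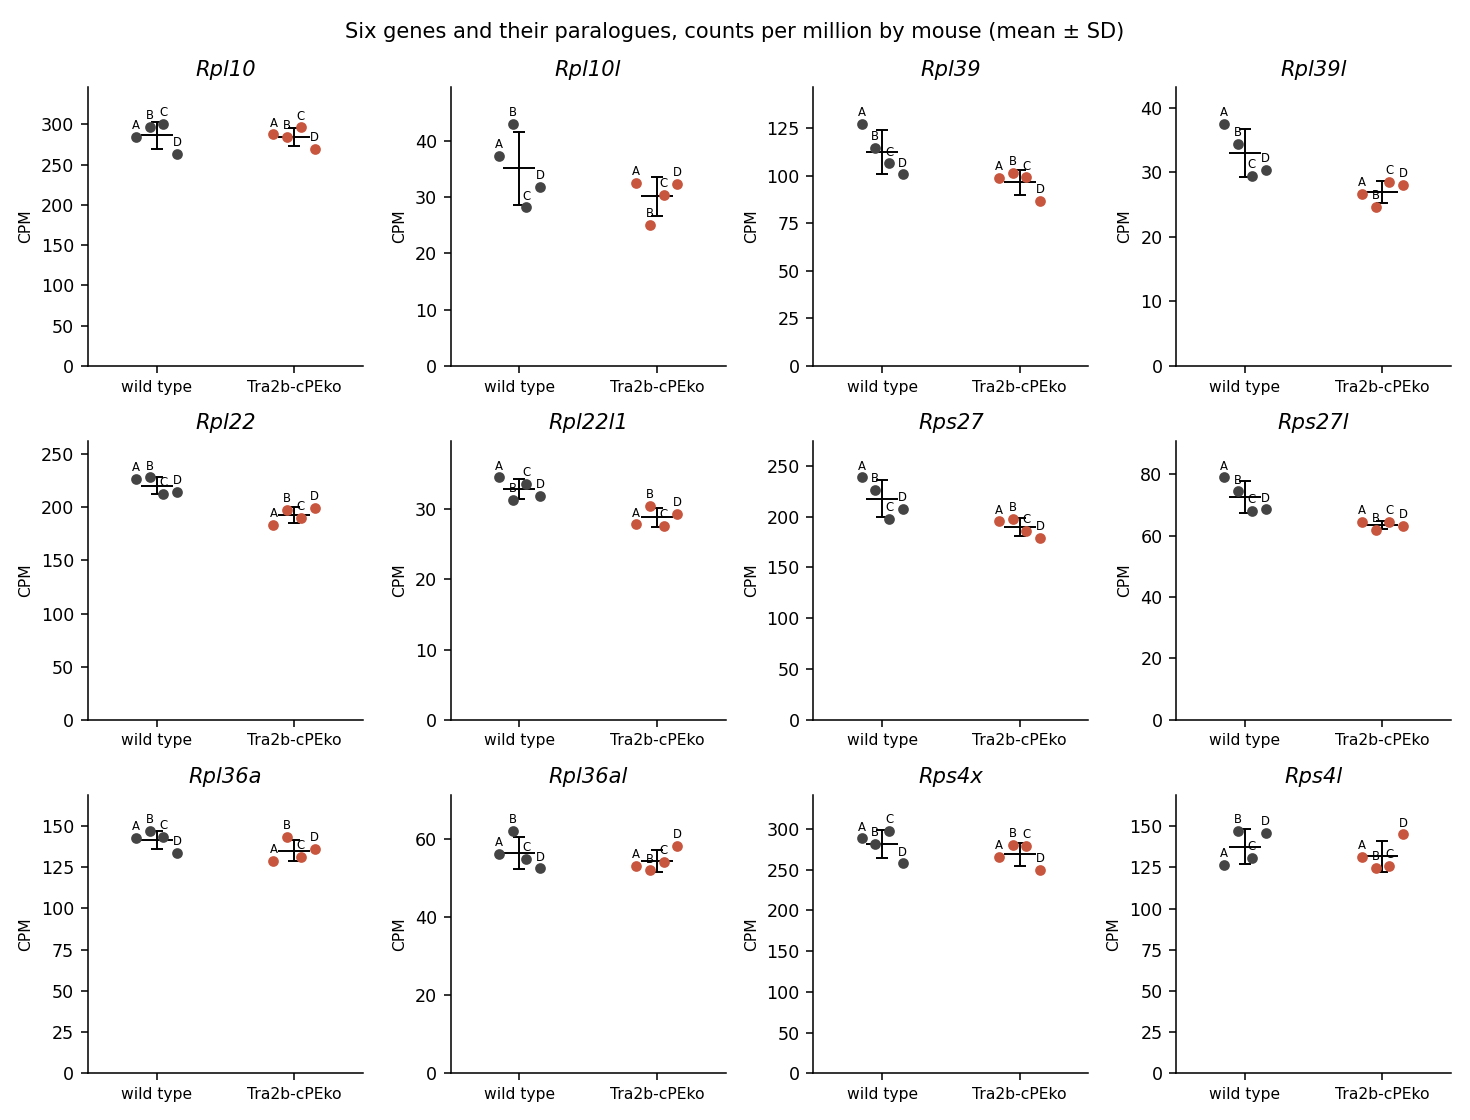
CPM in each mouse (points with replicate letters) for 6 genes and, to the right of each, the paralogue; bars and whiskers are means ± SD of 4 mice, and every axis starts at 0. Wild type and Tra2b-cPEko points do not overlap for Rpl39l, Rpl22, Rpl22l1 and Rps27l, and they overlap in the other 8 panels.

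Among the remaining paralogues, 2 did not overlap between groups. Rps27l, a gene that p53 induces, was at 79.1, 74.5, 68.0 and 68.6 CPM in wild type A to D and at 64.4, 61.9, 64.4 and 63.1 CPM in Tra2b-cPEko A to D, without overlap (log2 fold change -0.19, SE 0.05, edgeR adjusted p = 0.141, DESeq2 adjusted p = 0.04). Its estimate was -0.10 without wild type A and B (edgeR adjusted p = 0.458). Rpl22l1, the paralogue of Rpl22, was at 31.3 to 34.5 CPM and at 27.6 to 30.5 CPM, also without overlap (-0.19, SE 0.06, edgeR adjusted p = 0.158, DESeq2 adjusted p = 0.0473). Rpl36al, Rps4l and Rpl7l1 had log2 fold changes of -0.05, -0.06 and -0.04, each with overlap and with edgeR adjusted p of 0.702, 0.655 and 0.67. They were 0.02, -0.07 and -0.01 without wild type A and B. Rpl3l, which takes the place of Rpl3 in muscle, was near 2 CPM (2.16 in wild type and 1.83 in Tra2b-cPEko mice on average), and its estimate of -0.24 had a standard error of 0.15 and was -0.11 without wild type A and B. Of the parent genes Rps27, Rpl7 and Rpl3, all with overlap, the log2 fold changes were -0.20, -0.10 and -0.04 with edgeR adjusted p of 0.161, 0.413 and 0.751, and -0.10, -0.03 and 0.01 without wild type A and B. Rpl6l and Rpl32l, which the annotation lists as pseudogenes, were at 0.311 and 0.0789 CPM on average in wild type mice.

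Within a library, the ratio of a paralogue to its parent does not depend on scaling. The log2 ratio of Rpl39l to Rpl39 was -1.76, -1.74, -1.85 and -1.73 in wild type A to D and -1.89, -2.04, -1.80 and -1.64 in Tra2b-cPEko A to D. The groups overlapped, with means of -1.77 ± 0.06 and -1.84 ± 0.17 (SD, n = 4) and a difference of -0.07 (two-sided exact permutation p = 0.486, adjusted p = 0.971 over 8 pairs). For Rpl10l and Rpl10 the difference was -0.20 (exact permutation p = 0.286, adjusted p = 0.971). Their log2 ratio was -2.93, -2.79, -3.42 and -3.05 in wild type A to D and -3.15, -3.51, -3.28 and -3.06 in Tra2b-cPEko A to D. Wild type A and B were highest, and the groups overlapped. Over all 8 pairs the differences lay between -0.21 for Rpl3l and 0.06 for Rpl7l1, the smallest exact permutation p was 0.143, and no pair passed after adjustment. The smallest exact permutation p that 4 against 4 mice can give is 0.0286, so 1 pair alone could not pass adjustment over 8 pairs. The adjusted values therefore cannot decide whether a single ratio differed. Rpl22 and Rpl22l1, and Rps27 and Rps27l, were lower by nearly the same factor, with differences of ratio of 0.00 and 0.01. Rpl39l made up 19.5 to 24.3% of the reads of its pair and Rpl10l 8.09 to 12.6%, subject to the copies of the parents noted above. These shares also depend on gene length. From mean levels over all mice they were 41.1% and 12.5% per kb of union exons, and 22.3% and 10.2% per kb of coding sequence.

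Rps2, Rpl13 and Rpl36 stood out by their spread and were chosen after their values were seen. Rps2, a small-subunit protein at the mRNA entry, was at 442, 452, 446 and 571 CPM in wild type A to D and at 480.4, 466, 461 and 581 CPM in Tra2b-cPEko A to D. The mouse lettered D was the highest in both groups, and the log2 fold change of 0.06 had a standard error of 0.10. Rpl13 showed the same 2 high mice, at 472 CPM in wild type D and 479 CPM in Tra2b-cPEko D, against 335 to 385 CPM in the other 6. Rpl36 was at 151 CPM in both mice lettered D, though wild type B was higher still at 157 CPM.

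Members with few and with many copies elsewhere both had lower estimates. The median log2 fold change was -0.16 over the 14 members tested with under 10% of windows copied, of which 14 had a lower estimate. DESeq2 called 4 of them lower, against 1.14% of all genes it tested. It was -0.10 over the 51 members with 10 to 90% and -0.08 over the 20 with 90% or more. These medians were -0.08, -0.04 and -0.05 without wild type A and B. The share of all table reads that were not aligned uniquely was 15.18% ± 0.296 in wild type and 14.98% ± 0.352 in Tra2b-cPEko mice (SD, n = 4). Annotated ribosomal protein pseudogenes, 23 in the tables, held 163 to 276 reads per library in wild type and 141 to 173 in Tra2b-cPEko mice. Of the 6 that were tested, 4 had a lower estimate and none was called by edgeR or DESeq2, with 0 at an unadjusted edgeR p under 0.05.

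Length and abundance were looked at in the same way, since most members are short and abundant. Among other genes with at least 100 CPM, 169 had a coding length of up to 600 bases, and their median log2 fold change was -0.03 with 66.3% of estimates lower. The 2599 with a longer coding sequence had a median of 0.01 and 44.8% lower. Both medians were -0.01 without wild type A and B, where 104 of the 169 and 1382 of the 2599 were lower. The part of transcript length in the members' difference was not tested.

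For members that move together, the sequence at the transcription start was read from RefSeq start sites on GRCm38.p6, which held 64 of the 86 members. The motif searched, on the gene's strand only, was a C followed by 4 bases that are each C or T, starting within 2 bases of the annotated start. It was found in 22 members (34.4%) against 10.6% of all 27025 genes with a window, and at the exact start in 14 members (21.9%) against 3.01%. The windows below run from 10 bases before the start, with capitals from the first base of the match closest to the start to the last C or T that follows without a break, for 3 members that hold the motif and 2 called by DESeq2 that do not (Rps21 and Rpl22 each have 2 RefSeq starts, of which 1 is shown: the other start of Rps21 does not have the motif, and neither start of Rpl22 has it).
Rps21, chr2:180257369-180257398, plus strand: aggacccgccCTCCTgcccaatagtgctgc
Rps27, chr3:90213629-90213658, minus strand: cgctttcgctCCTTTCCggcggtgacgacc
Rpl13a, chr7:45128726-45128755, minus strand: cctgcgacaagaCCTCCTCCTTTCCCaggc
Rpl39l, chr16:10170218-10170247, plus strand: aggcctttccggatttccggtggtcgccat
Rpl22, chr4:152324426-152324455, plus strand: cttctggaatgttccagctcccactgacag
The 21 members tested with the motif had a median log2 fold change of -0.10, and the 42 without it also had -0.10. The 2 medians were -0.07 and -0.05 without wild type A and B. DESeq2 called 4 of the 21 and 4 of the 42 lower, against 1.14% of all genes it tested. Annotated starts can lie several bases from the main start in a tissue, so a window without the motif says only that these letters were not found there.

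Ribosome genes that the symbol rule leaves out were looked at beside the members. Rack1, a scaffold for signalling proteins on the small subunit, was at 488, 504, 480 and 465 CPM in wild type A to D and at 447, 454, 444 and 436 CPM in Tra2b-cPEko A to D, without overlap (log2 fold change -0.12, SE 0.04, edgeR adjusted p = 0.202, DESeq2 adjusted p = 0.0486). Rpsa, which encodes a small-subunit protein, and Fau, which encodes a ubiquitin-like protein fused to one, had log2 fold changes of -0.09 each, with overlap. Without Tra2b-cPEko C they were -0.07 and -0.05, and without wild type A and B -0.06 and -0.04.

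Genes that act with the ribosome had medians closer to 0 than the members with all mice, but not in every list without wild type A and B. For comparison, 7.07% of all genes tested were lower and 8.22% higher at an unadjusted edgeR p under 0.05. DESeq2 called 1.14% of the genes it tested lower. Of 17 translation factors and other mRNAs with a TOP motif, with Eef1a1 the most abundant at 3829 CPM, 14 had a lower estimate, 0 were called by edgeR, 5 were lower at an unadjusted p under 0.05 and 0 were called by DESeq2 (median log2 fold change -0.04). Eef1d, Nap1l1 and Btf3 had the smallest p, with log2 fold changes of -0.13, -0.12 and -0.12 and edgeR adjusted p of 0.245, 0.253 and 0.296, and Btf3 was at -0.04 without wild type A and B. Of 45 ribosome assembly factors, 35 had a lower estimate (median -0.04), 0 were called by edgeR, 9 were lower and 1 higher at an unadjusted p under 0.05, and DESeq2 called 2 lower. Those were Emg1, an rRNA methyltransferase (log2 fold change -0.18, edgeR adjusted p = 0.117), and Ltv1, which helps to mature the small subunit (-0.17, edgeR adjusted p = 0.14). Of 11 RNA polymerase I genes 8 had a lower estimate (median -0.07), with Polr1c at -0.13 and Polr1a at 0.11 (-0.16 and 0.06 without wild type A and B), and neither edgeR nor DESeq2 called any, though 2 were lower and 1 higher at an unadjusted edgeR p under 0.05. Of the 14 regulators around mTOR, LARP1 and Myc 7 had a lower estimate, with a median of 0.00, 1 lower at an unadjusted edgeR p under 0.05 (Rheb, which activates mTOR, at -0.11) and none called by either tool. Without Tra2b-cPEko C 6 of them were lower, with a median of 0.02, and without wild type A and B 9 were, with a median of -0.04. In the latter fit the medians were -0.03 for the TOP list, -0.05 for assembly factors and -0.03 for RNA polymerase I genes, beside -0.05 for the members, and without Tra2b-cPEko C the TOP and RNA polymerase I medians were -0.02 and -0.04.

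Mitochondrial ribosomal proteins, which make up a separate ribosome, also had lower estimates. Of 78, 74 had a lower estimate, with a median log2 fold change of -0.08. None was called by edgeR, and 12 were lower at an unadjusted edgeR p under 0.05, against 7.07% of all genes. DESeq2 called 2 lower, against 1.14% of all genes, and 11 (14.1%) did not overlap, against 4.18%. Without wild type A and B the median was -0.03, with 55 of 78 lower. Mrps9 was at 56.2, 62.3, 52.9 and 58.6 CPM in wild type A to D and at 46.9, 47.9, 45.5 and 50.6 CPM in Tra2b-cPEko A to D (-0.27, SE 0.06, edgeR adjusted p = 0.0844), and Mrpl50 had a log2 fold change of -0.18 (edgeR adjusted p = 0.134).

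**Figure D4:**
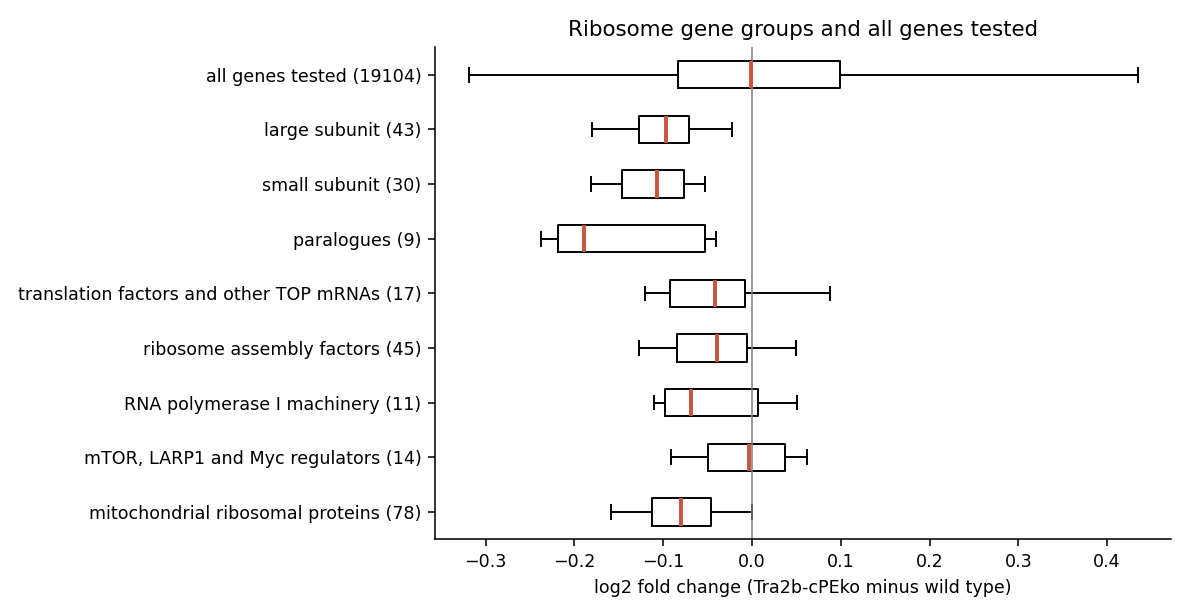
Log2 fold change (Tra2b-cPEko minus wild type) over the genes tested in each group, whose number is in brackets: boxes give quartiles, red lines medians and whiskers the 5th and 95th percentiles. Medians are -0.10 for the large subunit, -0.11 for the small subunit, -0.19 for the paralogues and -0.08 for mitochondrial ribosomal proteins, against 0.00 for all genes tested.

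Germ cell markers also differed by estimate, for the meiotic lists in a direction that turned without wild type A and B, and their part in the members' difference was not tested. Over all genes tested, edgeR called 0.157%, and 7.07% were lower and 8.22% higher at an unadjusted edgeR p under 0.05. DESeq2 called 1.14% of the genes it tested lower. All 9 genes of differentiating spermatogonia had a lower estimate (median log2 fold change -0.11; sums of 748 to 823 CPM in wild type and 637 to 742 CPM in Tra2b-cPEko mice, without overlap), and edgeR called Sohlh1, a spermatogonial transcription factor, lower (-0.34, adjusted p = 0.0341; 0.108 without Tra2b-cPEko C and 0.0691 without wild type A and B). The median of this list was -0.19 without wild type A and B and -0.18 without Tra2b-cPEko C, with all 9 lower in both. Genes of leptotene and zygotene spermatocytes had a lower estimate in 24 of 29 (median -0.15, 0 called by edgeR, 8 lower and 1 higher at an unadjusted p under 0.05, 4 lower by DESeq2), among them Mei1 (-0.36, edgeR adjusted p = 0.101). Without wild type A and B only 12 of the 29 were lower, with a median of 0.05. Of the 15 pachytene genes tested 12 had a lower estimate (median -0.37), with 0 called by edgeR, 1 lower at an unadjusted p under 0.05 and 1 by DESeq2. Of these 15, 5 were lower without wild type A and B, with a median of 0.22. Of 12 genes of undifferentiated spermatogonia 7 were lower by estimate (median -0.08; -0.14 and 9 lower without wild type A and B), with 0 called by either tool and 2 lower at an unadjusted p under 0.05.

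Among somatic markers, macrophage, stromal, endothelial and Leydig cell lists had higher medians and Sertoli and red blood cell lists lower ones. All 11 macrophage genes had a higher estimate (median 0.28, with Mrc1 the most abundant at 44.4 CPM), 0 called by edgeR, 6 higher at an unadjusted p under 0.05 and 2 higher by DESeq2, where 8.22 and 1.66% of all genes were higher. Estimates were higher for 11 of 12 peritubular and stromal genes (median 0.08), for 9 of 10 endothelial genes (median 0.06) and for 6 of 9 Leydig cell genes (median 0.40). Of 14 Sertoli cell genes, 11 were lower (median -0.05), and of 6 red blood cell genes tested 5 were (median -0.51). Without wild type A and B the Leydig and red blood cell medians were 0.05 and 0.59, and without Tra2b-cPEko C the peritubular and endothelial medians were 0.04 and 0.02. In these 5 lists edgeR called none, DESeq2 called 2 Leydig cell genes higher, and at an unadjusted edgeR p under 0.05 there were 2 peritubular, 0 endothelial and 2 Leydig cell genes higher, and 2 Leydig cell, 1 Sertoli cell and 0 red blood cell genes lower. At that threshold 7.07% of all genes were lower. Of 8 epididymal genes 2 were tested, Cst12 and Wfdc15a, with estimates of 0.07 and -0.24 that were 0.16 and 0.23 without wild type A and B, neither called by edgeR or DESeq2, and 0 at an unadjusted edgeR p under 0.05.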

How the data were processed

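Whole-testis RNA was sequenced from 8 mice with a stranded mRNA kit and paired reads. The authors deposited 1 table of raw counts per mouse: 40840 gene symbols and 5 summary lines. The submitters' processing notes name HISAT2 2.2.1, SAMtools 1.7.1 and HTSeq 2.0.2 and the build GRCm39; the study's methods name Salmon, but the summary lines are those of HTSeq. These lines (31.0 to 32.4% of table reads in wild type and 32.7 to 33.6% in Tra2b-cPEko mice) were left out. Counts as deposited were tested in R 4.3.3 with edgeR 4.0.16 (filterByExpr with a least count of 10, TMM factors of 0.994 to 1.01, robust glmQLFit and glmQLFTest, genotype as the only term), with Benjamini-Hochberg adjustment over 19104 genes and a threshold of 0.05. DESeq2 1.42.0 with default settings, the test of the study's methods, limma-voom (limma 3.58.1), other scalings and filters, a replicate block and fits without each mouse were alternatives. Exact permutation tests were two-sided over 70 arrangements on log2 CPM with 0.01 added. The deposited counts hold whole reads, so precision is limited mainly by the spread between mice (biological coefficient of variation 9.56%). The code was tested on simulated data.

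The members and lists were chosen with earlier results of these data known. The genes to name were chosen from all paralogues and parents, the P stalk, the 10 other members with the smallest p, the 3 highest and 3 lowest per length, members called by any tool, ribosome genes outside the rule, and up to 3 genes with the smallest p in each list, of which not all are printed. All 86 members matched GENCODE vM39 by symbol, and 3 listed RNA polymerase I genes were not found under their symbols in the tables. Results for 2 genes are not reported here.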

Additional observations from a re-analysis of the deposited data

Results flagged for a closer look

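In 3 of 92 groups of 4 mice examined, 1 mouse stood far from the others by Dixon's test at the 95% level, and chance gives about 1 in 20. Rpl6l, a pseudogene in the annotation, was at 1.14 CPM in Tra2b-cPEko D and at 0.281 to 0.327 CPM in the other Tra2b-cPEko mice. Rpl39 was at 86.9 CPM in Tra2b-cPEko D, the lowest of the 8 mice. The log2 ratio of Rps27l to Rps27 was -1.54 in wild type C, above the other wild type mice.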

How the results depend on the processing

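The median log2 fold change of the members was negative under all 17 alternatives, between -0.12 and -0.07 over fits without 1 mouse, and -0.047 without wild type A and B, a setting added after seeing the data. Members with a higher estimate numbered 3; 5 with upper-quartile factors, 1 to 8 without 1 mouse and 13 without wild type A and B. Members called by edgeR numbered 0; 10 were called by DESeq2 and 2 at an adjusted p under 0.1, and no other alternative in edgeR or limma-voom called one, while DESeq2 without 1 mouse called 0 to 18. All genes called numbered 30, against 58 with upper-quartile factors, 123 with no low-count filter, 14 with a mean count of at least 50, 507 with DESeq2, 11 with limma-voom, 12 without robust estimation, 156 at an adjusted p under 0.1, 3 to 84 without 1 mouse and 1 without wild type A and B. With a replicate block 67 genes and 0 members were called. The letters were not treated as pairs in the main fit, since same-lettered mice are not said to share a litter. Correlations between same-lettered mice of deviations from their group means were 0.01, -0.17, -0.02 and 0.20 for A to D. Upper-quartile factors moved the median of all genes from 0.00 to 0.02. Without Tra2b-cPEko D, Rpl6l went from 0.67 to -0.05. As a share of all table reads, members were at 1.81 to 2.02% in wild type and 1.68 to 1.78% in Tra2b-cPEko mice, without overlap. The causes were not tested.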
